A study of Homo sapiens with 4 samples.

Results

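The enzymes and reader of histone acetylation were examined in MV4-11 cells after knockdown of ANP32B. A set of 9 genes, chosen by symbol, was followed, and all 9 were found among the 18885 genes measured. They were the acetyltransferases EP300, CREBBP, KAT2A and KAT2B (writers), the bromodomain protein BRD2 (reader), and the deacetylases HDAC1, HDAC2, HDAC3 and HDAC5 (erasers). MV4-11 is a human acute myeloid leukemia (AML) cell line that carries an MLL fusion. RNA-seq was performed on 2 libraries of control cells (sh-NC) and 2 libraries of cells with an shRNA against ANP32B (sh-ANP32B). The labels record no shRNA and no treatment for the controls, while the study's text describes an sh-NC control. An effect of transduction or puromycin selection and the loss of ANP32B thus cannot be told apart. Both knockdown columns carry the mark S3. If it stands for a single shRNA, its off-target effects cannot be told apart from the loss of ANP32B either. The labels do not say whether the libraries of a group came from separate cultures, so p-values measure the spread between these libraries, which may be technical.

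Acetylation of lysines on histone tails marks open chromatin and active promoters and enhancers, and H3K27ac, the mark followed in the study, is placed mainly by the related enzymes p300 and CBP, the products of EP300 and CREBBP. GCN5 and PCAF, the products of KAT2A and KAT2B, are a second pair of related enzymes and acetylate other lysines of H3 such as H3K9. BRD2 belongs to the BET family, whose paired bromodomains bind acetylated lysines. HDAC1 and HDAC2 are close relatives that remove acetyl groups within the NuRD, SIN3 and CoREST complexes, HDAC3 does so within the NCoR complex, and HDAC5 is a class IIa enzyme that shuttles between nucleus and cytoplasm.

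The promoter sequences of the genes whose level passed the test below are shown first, since they let the control regions of the writers and of the erasers be set side by side. Each run holds the 250 bases before the RefSeq start of the gene (GRCh38.p14), written 5′ to 3′ on the strand of the gene, with matches to the motifs in capitals.
EP300: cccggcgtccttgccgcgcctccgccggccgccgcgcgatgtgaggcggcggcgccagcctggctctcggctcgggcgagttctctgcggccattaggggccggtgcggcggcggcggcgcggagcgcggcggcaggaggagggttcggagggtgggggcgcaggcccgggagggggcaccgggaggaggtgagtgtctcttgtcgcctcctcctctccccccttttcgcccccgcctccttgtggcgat
KAT2B: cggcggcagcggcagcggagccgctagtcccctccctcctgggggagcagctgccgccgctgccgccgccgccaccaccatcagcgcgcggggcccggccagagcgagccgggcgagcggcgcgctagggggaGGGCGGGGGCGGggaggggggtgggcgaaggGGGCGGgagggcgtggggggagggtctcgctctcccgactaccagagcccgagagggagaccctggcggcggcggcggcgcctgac
HDAC1: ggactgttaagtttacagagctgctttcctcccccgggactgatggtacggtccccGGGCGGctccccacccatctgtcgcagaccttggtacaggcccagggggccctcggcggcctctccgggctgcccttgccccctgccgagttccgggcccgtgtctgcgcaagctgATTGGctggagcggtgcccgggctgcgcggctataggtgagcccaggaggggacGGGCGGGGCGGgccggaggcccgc
HDAC2: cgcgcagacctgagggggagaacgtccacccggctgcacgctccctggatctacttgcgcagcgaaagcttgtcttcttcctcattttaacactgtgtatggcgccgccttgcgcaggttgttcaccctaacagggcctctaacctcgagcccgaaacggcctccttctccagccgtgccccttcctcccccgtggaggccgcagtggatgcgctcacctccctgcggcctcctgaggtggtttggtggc
The windows lie at chr22:41092342-41092591 (plus strand) for EP300, chr3:20040196-20040445 (plus strand) for KAT2B, chr1:32291833-32292082 (plus strand) for HDAC1 and chr6:113971149-113971398 (minus strand) for HDAC2, the last at a start inside the gene as GENCODE draws it. HDAC5, which also passed the test, is named only. The motifs were searched on both strands, with overlapping matches counted separately: the GC box GGGCGG, the CCAAT box CCAAT and the E-box CACGTG bound by MYC and its relatives. KAT2B and HDAC1 each held 3 GC boxes, and EP300 and HDAC2 held 0. A single CCAAT box was found in HDAC1. The E-box was found in none of these 4 windows, nor in the other 8 windows that RefSeq gives for CREBBP, KAT2A, BRD2 and HDAC3. Of 35116 windows of all genes, 42.6% held a GC box, 32.0% a CCAAT box and 6.34% an E-box. The GC content was 76.8% in EP300, 80.8% in KAT2B, 71.6% in HDAC1 and 63.2% in HDAC2, against a median of 58.0% over all windows. These matches describe the letters only.

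The values are TPM, a measure in which reads are divided by gene length and every library is brought to a common total. Comparison of levels between genes rests on the lengths used, which are not given in the sources used here. Read numbers cannot be recovered from TPM, which leaves the depth unknown and allows no counting interval. The test was that of limma on log2(TPM + 1), run over 16937 genes, and a gene passed at a Benjamini-Hochberg adjusted p below 0.05. The targeted gene, ANP32B, fell from 358 and 364 TPM to 54.1 and 49.3 TPM, which was -2.78 on the log2 scale (adjusted p = 2.89e-05). The 8 markers of the myeloid line (PTPRC, CD33, ANPEP, FLT3, SPI1, CEBPA, HOXA9 and MEIS1) summed to between 1054 and 1360 TPM in the 4 libraries. Of 16 markers of T, B, erythroid, epithelial and stromal cells, 5 were analysed, none above 7.31 TPM. The labelled cell type was thus borne out by its markers. The 6 cycling markers were all lower after knockdown (1461 and 1477 TPM in sum against 684 and 684 TPM). Of 6 monocyte markers 5 were analysed and 4 were higher, with sums of 529 and 523 TPM against 5591 and 5537 TPM, most of it LYZ, while CD14 was not analysed here. Mitochondrial genes held 15.4% to 15.9% of the TPM in sh-NC and 17.4% to 17.6% in sh-ANP32B. In bulk RNA, fewer cells of a kind and less RNA per cell cannot be told apart. The part of these shifts in the values below was not tested.

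After ANP32B knockdown, EP300, KAT2B and HDAC5 rose and HDAC1 and HDAC2 fell, while CREBBP, KAT2A, BRD2 and HDAC3 did not pass the test. The changes were modest, with group means after knockdown between 69.3% (HDAC2) and 139.9% (HDAC5) of the control. Among all genes tested, 45.7% passed the test, 26.0% as higher and 19.7% as lower, so 3 higher and 2 lower of 9 is near what the whole table shows. In all 9 genes the 2 groups of libraries did not overlap, 4 being higher and 5 lower after knockdown. The same held for 74.7% of all genes, 42.5% as higher and 32.1% as lower, so this too is no result about the 9. HDAC2 alone also passed the limits of the study's methods, p below 0.05 with a log2 fold change beyond 0.5, with the p read here as unadjusted, which 31.0% of all genes passed (20.2% higher and 10.8% lower). With the adjusted p in their place the share was 28.0% (17.9% higher and 10.1% lower), and HDAC2 was again the one that passed. Single libraries decided this, since HDAC2 was at -0.41 without sh-NC 1 and at -0.45 without sh-ANP32B 2, while HDAC5 was at 0.53 without sh-NC 2 and at 0.52 without sh-ANP32B 1.

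**Figure D1:**
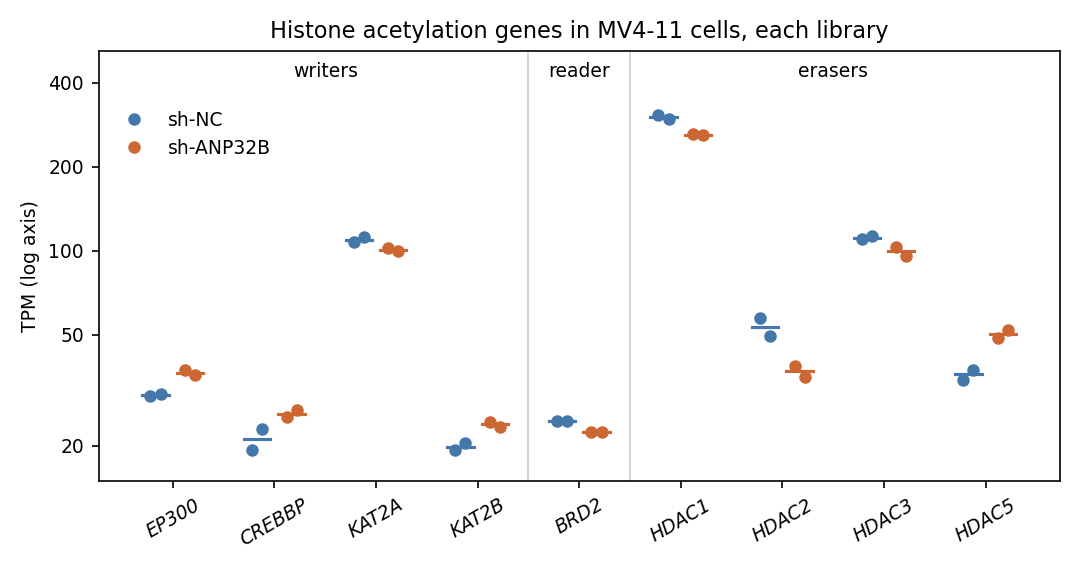
TPM on a log axis of the 9 genes in each library, with sh-NC in blue and sh-ANP32B in orange; points are libraries and short lines are group means (n = 2). HDAC1 was the highest gene in both groups (302 and 260.2 TPM on average), and HDAC5 and HDAC2 changed places, from 36.0 and 53.5 TPM in sh-NC to 50.4 and 37.1 TPM in sh-ANP32B.

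In the control cells, the levels ran from HDAC1 at 302 TPM down to KAT2B at 19.9 TPM on average, as the plot of levels by library shows. HDAC3 (111 TPM) and KAT2A (109.5 TPM) followed HDAC1 and overlapped each other. Below them came HDAC2 (53.5 TPM), HDAC5 (36.0 TPM), EP300 (30.4 TPM) and BRD2 (24.6 TPM), each separated from the next, and CREBBP (21.2 TPM) and KAT2B overlapped at the lower end. After knockdown, KAT2A and HDAC3 again overlapped, HDAC5 (50.4 TPM) stood above HDAC2 (37.1 TPM), HDAC2 overlapped EP300 (36.6 TPM), and BRD2 (22.4 TPM) was the lowest. HDAC1 alone held more TPM than the 4 writers together, which summed to 176, 186, 189 and 186 TPM in sh-NC 1, sh-NC 2, sh-ANP32B 1 and sh-ANP32B 2.

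Of the writers, EP300 (ENSG00000100393, chr22:41092592-41180077, plus strand) stood at 30.1 and 30.7 TPM in the controls and at 37.3 and 35.9 TPM after knockdown. Both knockdown libraries stood above both controls. This was a log2 fold change of 0.26 (SE 0.0625, adjusted p = 0.0203). The call was lost, with adjusted p between 0.0608 and 0.0872, when sh-NC 1, sh-NC 2 or sh-ANP32B 1 was left out, although the fold change stayed between 0.23 and 0.29. It was also lost with median-of-ratios scaling (0.17, adjusted p = 0.0767) and without the variance trend of limma (0.26, adjusted p = 0.052). EP300 shares 107 exonic bases with a lncRNA gene on the opposite strand.

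CREBBP (ENSG00000005339, chr16:3725054-3880713, minus strand), the partner of EP300, measured 19.4 and 22.9 TPM in the controls against 25.4 and 26.8 TPM after knockdown. The controls differed from each other more than the knockdown libraries did. Its log2 fold change of 0.30 (95% limits 0.04 to 0.55) did not pass the test (adjusted p = 0.0593). It was 0.18 without sh-NC 1 and 0.41 without sh-NC 2, and it passed in the latter case (adjusted p = 0.0311).

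KAT2B (ENSG00000114166, chr3:20040446-20154404, plus strand) moved from 19.3 and 20.4 TPM to 24.3 and 23.4 TPM, which gave a log2 fold change of 0.25 (SE 0.0773, adjusted p = 0.0427). The groups were apart, but the call was the closest to the threshold among the 5 and did not hold when any single library was left out (adjusted p between 0.0789 and 0.16), although the fold change stayed between 0.22 and 0.29. It was lost as well with the replicate number as a block (0.25, adjusted p = 0.0752), without the variance trend (0.25, adjusted p = 0.064), with median-of-ratios scaling (0.16, adjusted p = 0.13) and with quantile normalization (0.22, adjusted p = 0.0595).

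KAT2A (ENSG00000108773, chr17:42113111-42121367, minus strand), the partner of KAT2B, was at 107 and 112 TPM in the controls and at 102 and 99.6 TPM after knockdown. The controls were both higher, but by little. A log2 fold change of -0.12 (95% limits -0.24 to -0.0033) did not pass the test (adjusted p = 0.0859), but it did so with median-of-ratios scaling (-0.22, adjusted p = 0.0118). KAT2A shares 405 exonic bases with the protein-coding gene ENSG00000267261 on the same strand, which was not analysed here.

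The reader BRD2 (ENSG00000204256, chr6:32968594-32981505, plus strand) had the closest replicates of the 9 genes. It stood at 24.5 and 24.6 TPM in the controls and 22.4 and 22.5 TPM after knockdown. Replicates differed by far less than the groups did. In limma, which draws the variance of a gene toward that of genes of like level, the log2 fold change of -0.13 (95% limits -0.30 to 0.05) did not pass (adjusted p = 0.191). With median-of-ratios scaling it was -0.22 and passed (adjusted p = 0.047). BRD2 shares exonic bases with HLA-DMA (55) and with 2 lncRNA genes (243 and 577), so reads could be split between them.

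Among the erasers, HDAC2 (ENSG00000196591, chr6:113933028-114011308, minus strand) had the lowest fold change. The controls held 57.3 and 49.7 TPM and the knockdown libraries 38.8 and 35.3 TPM, or 69.3% of the control mean. Replicates differed in both groups, yet the lowest control stood above the highest knockdown library. The log2 fold change was -0.51 (SE 0.0898, adjusted p = 0.00673), and 11.2% of all genes tested lay below it. It passed in each of 11 alternatives, between -0.62 and -0.41. HDAC2 shares 69 exonic bases with HDAC2-AS2 on the opposite strand, which had at most 2.45 TPM.

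HDAC1 (ENSG00000116478, chr1:32292083-32333635, plus strand), the most abundant of the genes, fell from 307 and 297 TPM to 262 and 259 TPM. Both knockdown libraries were lower, at 86.2% of the controls on average. This gave a log2 fold change of -0.21 (SE 0.0380, adjusted p = 0.00721). The call held in 10 of 11 alternatives and was lost without the variance trend of limma (adjusted p = 0.077). The annotation names 2 pseudogenes, HDAC1P1 and HDAC1P2, to which reads could have been assigned.

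HDAC3 (ENSG00000171720, chr5:141620876-141636849, minus strand) was measured at 110 and 113 TPM in the controls and 103 and 95.5 TPM after knockdown. The groups were apart, and the knockdown libraries differed more from each other than the controls did. A log2 fold change of -0.16 (95% limits -0.30 to -0.03) did not pass the test (adjusted p = 0.0552). Without sh-ANP32B 1, the knockdown library nearer the controls, it was -0.22 and passed (adjusted p = 0.0383), as it did with median-of-ratios scaling (-0.26, adjusted p = 0.0129) and with at least 1 TPM required in every library (-0.16, adjusted p = 0.0497). A lncRNA gene on the opposite strand shares 426 of its exonic bases.

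HDAC5 (ENSG00000108840, chr17:44076746-44123702, minus strand) was the eraser that rose, from 34.6 and 37.5 TPM in the controls to 48.9 and 51.95 TPM. The gap between the groups was wider than either pair of replicates. Its log2 fold change of 0.47 (SE 0.0695, adjusted p = 0.00364) was the highest of the 9, and it passed in each of 11 alternatives, between 0.38 and 0.53. HDAC5 shares 1826 exonic bases with G6PC3 on the opposite strand, and the handling of strand is not given in the sources used here. G6PC3 went from 65.4 and 58.7 TPM to 50.4 and 50.2 TPM (log2 fold change -0.30, adjusted p = 0.0174), so it moved the other way, and how reads were divided between the genes was not tested.

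**Figure D2:**
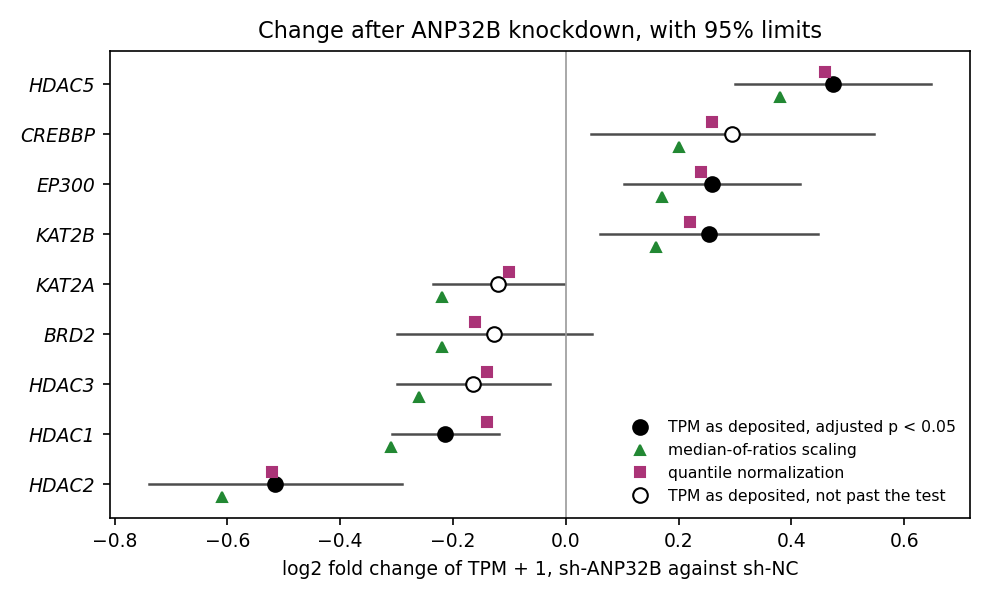
Log2 fold change of TPM + 1 of each gene, sh-ANP32B against sh-NC, with circles and 95% limits from limma on the TPM as deposited (filled where the adjusted p was below 0.05) and the values under 2 other scalings. The genes kept their signs under all 3 scalings, from -0.51 (HDAC2) to 0.47 (HDAC5) on the TPM as deposited.

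Because scaling moved the whole table, the changes were also set against the median of all genes, which was 0.08 on the log2 scale as deposited, -0.00 with median-of-ratios scaling and -0.04 with quantile normalization. Relative to 0.08, HDAC2 was at -0.59, HDAC1 at -0.29, HDAC3 at -0.24, BRD2 at -0.21 and KAT2A at -0.20, while KAT2B was at 0.17, EP300 at 0.18, CREBBP at 0.22 and HDAC5 at 0.39. The sign of each was the same relative to the median of its own setting in all 11 alternatives. Lower genes made up 43.1% of all calls as deposited, 54.0% with median-of-ratios scaling and 52.7% with quantile normalization. The members went from 3 higher and 2 lower to 1 and 5 with the first of these scalings and to 2 and 2 with the second.

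**Figure D3:**
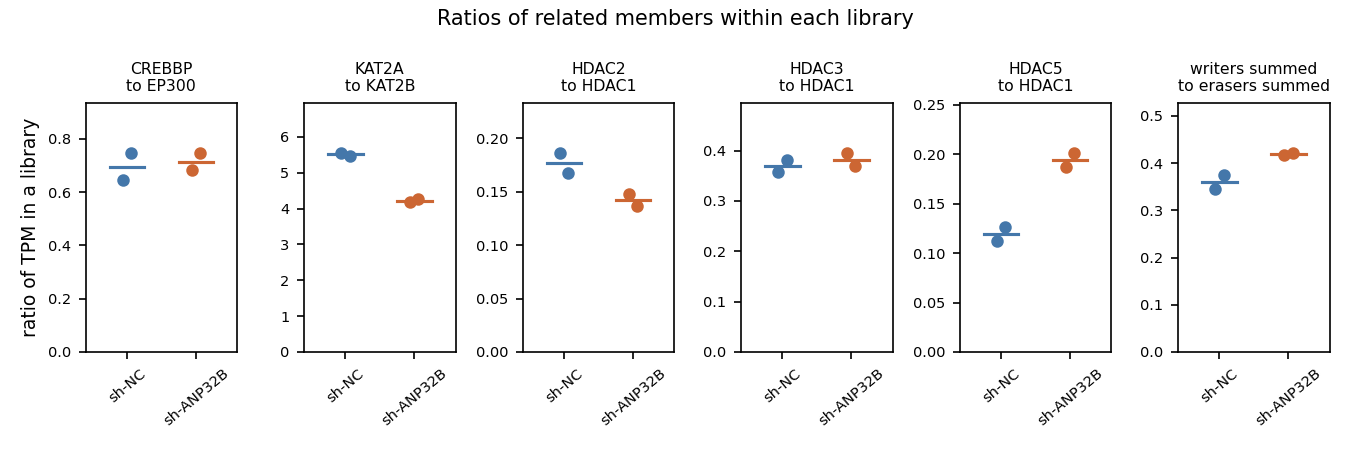
Ratio of TPM within each library for 6 combinations of the genes, each axis starting at 0; points are libraries and lines are group means (n = 2). KAT2A to KAT2B went from 5.55 and 5.48 to 4.19 and 4.26, while CREBBP to EP300 lay between 0.644 and 0.746 in all libraries.

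Ratios within a library do not depend on how libraries are scaled to each other, and 6 were computed. The ratio of HDAC2 to HDAC1 went from 0.186 and 0.167 to 0.148 and 0.137, a difference of -0.31 in the log2 ratio (pooled SD 0.097). HDAC2 was thus reduced more than its close relative in both knockdown libraries. The ratio of HDAC5 to HDAC1 was 0.112 and 0.126 against 0.187 and 0.201 (difference 0.70 in the log2 ratio). That of HDAC3 to HDAC1 overlapped between the groups (0.357 and 0.381 against 0.395 and 0.369). KAT2A held 5.55 and 5.48 times the TPM of KAT2B in the controls and 4.19 and 4.26 times after knockdown. This was a difference of -0.39 in the log2 ratio (pooled SD 0.015). That SD was the smallest of the 6, the others lying between 0.058 and 0.125, and it rests on 2 libraries per group. CREBBP to EP300 overlapped, at 0.644 and 0.746 in the controls and 0.681 and 0.746 after knockdown. The writers summed to 0.346 and 0.374 of the summed erasers in the controls and to 0.418 and 0.421 after knockdown. KAT2A weighed most in the sum of the writers and HDAC1 in that of the erasers. These are sums of RNA, and enzyme activity was not measured. The erasers went from 509 and 497 TPM to 453 and 442 TPM in sum, whereas the sums of the writers overlapped. The exact two-sided permutation p was 0.33 for the 4 ratios whose groups did not overlap, 0.67 for HDAC3 to HDAC1 and 1.0 for CREBBP to EP300. With 2 libraries against 2 it cannot go below 0.33, and after adjustment over the 6 ratios the smallest was 0.50.

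The 9 genes were then set beside 8 further lists, 132 genes in all, that hold other genes linked to acetylation. The lists are a selection made with earlier results of these data known, so the shares describe these genes only. Of the 126 that were tested, 21 rose and 44 fell (16.7% and 34.9%), against 26.0% and 19.7% of all genes. The median log2 fold change was -0.09 over these genes, -0.12 over the 9 and 0.08 over all genes tested.

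**Figure D4:**
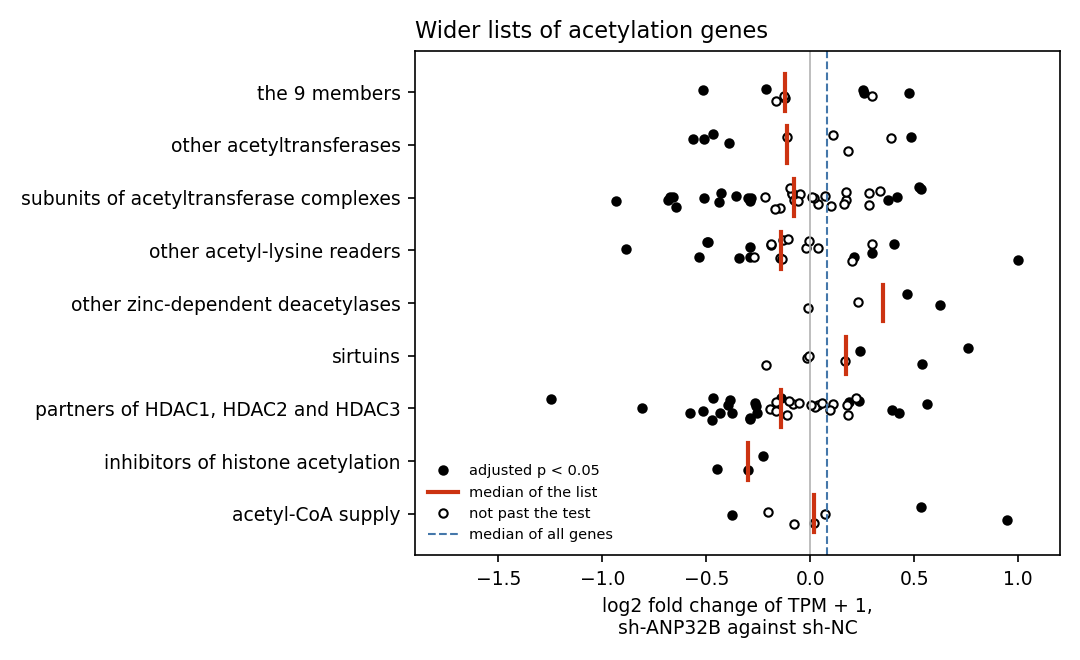
Log2 fold change of TPM + 1, sh-ANP32B against sh-NC, of every gene tested in the 9 genes and 8 further lists, with filled points where the adjusted p was below 0.05; vertical positions within a row are random. Red bars are list medians, from -0.30 for the inhibitors of histone acetylation to 0.35 for the other zinc-dependent deacetylases, and the dashed line is the median of all genes (0.08).

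Of the 9 other acetyltransferases, 4 fell and 1 rose (median -0.11). HAT1, which acetylates newly made H4, fell from 296 and 276 TPM to 201 and 185 TPM (log2 fold change -0.56, adjusted p = 0.00105). KAT6B (-0.51), KAT7 (-0.47) and KAT6A (-0.39), enzymes of the MYST family, fell as well, and the coactivator NCOA3 rose (0.49). KAT5, KAT8, TAF1 and NCOA1 did not pass the test, with log2 fold changes of 0.11, -0.11, 0.18 and 0.39, but KAT8 did so with median-of-ratios scaling (-0.21, adjusted p = 0.0133). Without sh-NC 2, 2 of this list fell, and without sh-NC 1 or sh-ANP32B 1 none rose.

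Of 36 subunits of acetyltransferase complexes, 12 fell and 4 rose (median -0.08). The lowest were JADE3 (-0.93) and JADE1 (-0.68), scaffolds of the HBO1 complex that holds KAT7, and MRGBP (-0.68) of the NuA4 complex. The highest were TADA2B (0.53) and TADA3 (0.52), adaptor subunits that work with KAT2A and KAT2B, and MSL3 (0.42) of the MSL complex. TADA3 went from 109 and 101 TPM to 150 and 152 TPM (adjusted p = 9.76e-04).

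Of 25 other readers, 23 were tested, 8 fell and 4 rose (median -0.14). BRD3, a BET protein like BRD2, had 41.4 and 40.4 TPM against 40.1 and 40.5 TPM (log2 fold change -0.02, adjusted p = 0.775). ATAD2 fell most, from 118 and 120 TPM to 66.9 and 60.8 TPM (-0.89, adjusted p = 3.01e-04), followed by MLLT1 (-0.54) and TRIM24 (-0.50). BAZ2B rose most (1.00), then BRWD1 (0.40) and BAZ2A (0.30), the last of which did not pass with median-of-ratios scaling. Without sh-NC 2, 5 readers fell, and 2 rose without sh-NC 1, with median-of-ratios scaling or with the replicate block.

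Of the 7 other zinc-dependent deacetylases, 4 were tested and 2 rose. HDAC10 went from 44.9 and 47.3 TPM to 70.4 and 72.8 TPM (log2 fold change 0.63, adjusted p = 6.52e-04), and HDAC6, mainly a tubulin deacetylase of the cytoplasm, rose by 0.47 (adjusted p = 0.00495). HDAC8 (0.23) and HDAC7 (-0.01) did not pass. HDAC9 and HDAC11 were too low to be tested, with at most 1.81 and 1.34 TPM, and HDAC4 was not analysed here.

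Of the 7 sirtuins, the NAD-dependent deacylases, 3 rose. SIRT2 went from 41.1 and 44.6 TPM to 76.4 and 70.0 TPM (log2 fold change 0.76, adjusted p = 7.55e-04), and SIRT5 (0.54) and SIRT6 (0.24) also rose, the latter not with median-of-ratios scaling. SIRT1 (-0.21), SIRT3 (-0.02), SIRT4 (-0.00) and SIRT7 (0.17) did not pass, but SIRT7 did so with quantile normalization (0.18, adjusted p = 0.0484). Without sh-NC 2, 1 sirtuin passed.

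Of 38 partners of HDAC1, HDAC2 and HDAC3, 37 were tested, 16 fell and 5 rose (median -0.14). SAP30 of the SIN3 complex fell from 57.4 and 65.9 TPM to 25.5 and 25.15 TPM (log2 fold change -1.25, adjusted p = 2.72e-04). RBBP7, a histone-binding subunit of both NuRD and SIN3, fell from 180 and 189 TPM to 108 and 101 TPM (-0.81, adjusted p = 2.84e-04), and GATAD2A of NuRD fell by 0.58 on the log2 scale. MIDEAS (0.56), the scaffold of a mitotic deacetylase complex, SIN3B (0.42) and the helicase CHD3 (0.39) rose. Their counterparts SIN3A (-0.47, adjusted p = 0.00827), for SIN3B, and CHD4 (-0.26, adjusted p = 0.00656), for CHD3, fell. Without sh-NC 2, 10 partners fell and 3 rose, while 3 rose with median-of-ratios scaling and 2 rose without either sh-ANP32B library or without the variance trend.

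All 3 inhibitors of histone acetylation fell. SET, which masks histone tails from p300 and PCAF, went from 327 and 338 TPM to 244 and 242 TPM (log2 fold change -0.45, adjusted p = 5.37e-04). NOC2L fell by 0.30 and ANP32A, a relative of the targeted gene, by 0.23 on the log2 scale (adjusted p = 0.00767 for ANP32A). The study describes ANP32A as unaffected in Western blots, which measure protein, and again as unchanged beside Western blots and qRT-PCR. The values here are RNA-seq. Of 7 genes of acetyl-CoA supply, 2 rose and 1 fell. ACSS2, which makes acetyl-CoA from acetate, went from 22.1 and 24.2 TPM to 47.2 and 43.8 TPM (0.95, adjusted p = 5.12e-04), and SLC25A1, the mitochondrial citrate carrier, rose by 0.53. DLAT, a subunit of pyruvate dehydrogenase, fell by 0.38 on the log2 scale, and without sh-ANP32B 1 2 genes of this list fell. ACLY, which makes acetyl-CoA from citrate, had 128 and 132 TPM against 127 and 120 TPM (log2 fold change -0.08, adjusted p = 0.236), and it passed with median-of-ratios scaling (-0.17, adjusted p = 0.0303). PDHA1 (-0.21), PDHB (0.02) and DLD (0.07) did not pass, the last 2 with signs that turned under median-of-ratios scaling, as did the median of the list (0.02 and -0.08).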

How the data were processed

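RNA-seq libraries of MV4-11 cells were made with an Illumina TruSeq kit and, per the labels and the methods of the study, aligned to hg38 with HISAT2 (version 2.0.5). The authors deposited 1 value per gene and library, read as TPM since all 4 columns sum to nearly the same total (997271 to 998546); the quantifier and annotation are not given in the sources used here. The table starts at a mean of 0.500 TPM over the libraries, and read depth is unknown. Of 18885 identifiers, 17290 were matched to symbols. Groups and replicate numbers were taken from the labels; the columns marked S3 were read as sh-ANP32B, the remaining group. The study's test needs counts and could not be repeated. Here limma (version 3.58.1, R 4.3.3; lmFit, eBayes with a trend) was run on log2(TPM + 1), after a filter of 1 TPM or more in 2 or more libraries, and Python 3.11.15 was used for tables and plots. Positions and overlaps come from GENCODE version 44 (hg38), promoter windows from RefSeq (GRCh38.p14); 8 of the 9 genes matched a window, 12 windows in all. All 9 genes were named, and from each further list the 3 highest and 3 lowest log2 fold changes, or all where a list has 9 or fewer, with BRD3, and a further gene that is not reported here; of the 36 subunits, 23 readers and 37 partners the others are given as counts. The genes and lists were chosen with earlier results of these data known.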

Additional observations from a re-analysis of the deposited data

How the results depend on the processing

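The 11 alternatives were the replicate block, no filter, at least 1 TPM in every library, a pseudocount of 0.1, 2 scalings, no variance trend, and each library left out in turn. ANP32B stayed between -2.88 and -2.72, and no member changed sign. Members called higher (3) were 1 with median-of-ratios scaling, 1 without the variance trend, 0 with a log2 fold change beyond 0.5 added, and 1 to 2 with a library left out. Members called lower (2) were 5, 1 and 1 under the first 3 of these settings and 2 to 3 with a library left out. Of all genes, 3342 were called lower, and 1712 with the fold limit added. The ratio of CREBBP to EP300 turned from 0.04 to -0.07 without sh-NC 1 and to -0.02 without sh-ANP32B 2, within a range of -0.07 to 0.15 over the libraries left out. With the replicate block, 2 members were called higher and 2 lower, and 4031 genes were higher and 3102 lower in all. Deviations of same-numbered libraries had a correlation of -0.0232 over genes, so no shared shift was seen. This value cannot show whether same-numbered libraries were prepared together. KAT2B was the member whose call the block changed. Of the further lists, the block moved readers called higher from 4 to 2 and lower from 8 to 7. Subunits went from 4 to 6 higher and from 12 to 11 lower. Partners went from 5 to 4 higher and from 16 to 14 lower. The counts of the other further lists stayed the same. The depth is unknown, and 2 libraries per group limit what can be called.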
